A study of Arabidopsis thaliana with 30 samples.

Results

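Ribosomes load onto an mRNA one after another, and an mRNA that carries several of them sediments in the polysomal part of a sucrose gradient. The share of an mRNA found there, its polysome occupancy, is therefore used as a measure of its engagement with ribosomes, while small nuclear RNAs, small nucleolar RNAs, tRNAs and the 7SL RNA of the signal recognition particle have other tasks in the cell and code for no protein. In seeds, dry storage, imbibition and seedling establishment each come with their own state of the translation machinery. The 150 Arabidopsis transcripts described here were ranked only among those above a set level in both fractions at every time. Of these they had the least signal in polysomes, relative to total mRNA, at their highest time point between dry seed and green seedling.

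The samples were after-ripened seeds and seedlings of the accession Columbia (Col-0), kept at 22°C in continuous light. The groups were polysomal mRNA (P) and total mRNA (T) from dry seeds and from imbibed seeds or seedlings at 6, 26, 48 and 72 HAI (hours after imbibition began), with 3 arrays in each of the 10 groups. P was the pooled gradient fraction of mRNAs with 2 or more ribosomes, and T came from the raw extract. All groups share the genotype and the storage, no mutant or treated plants were included, and each replicate came from seeds of a bulk of 100 plants. The material is whole seeds and seedlings, so it mixes embryo, endosperm, seed coat and, later, cotyledons and roots.

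Polysome occupancy was the mean of the 3 P arrays minus the mean of the 3 T arrays on the log2 scale, where -1 means that the P value was at 50% of the T value. Among the 27720 nuclear rows of the table with locus tags AT1G to AT5G, 5577 had all 10 group means above 5, and the 150 rows with the lowest maximum occupancy over the 5 time points were taken as members. The members were thus chosen by the differences between P and T on all 30 arrays, and their occupancy is given below as a description and was not tested. Because all arrays were normalized to each other, occupancies are relative to those of other genes, and a value of 0 does not mean an equal amount of RNA in both fractions. The study reports that most ribosomes of dry seeds were monosomes. Occupancies do not show such differences in the size of the polysomal pool, which limits comparisons of dry seeds with later times. All 30 arrays had medians between 3.53 and 4.15, and the markers of the material ran as the labels say. The 8 seed storage and oil body markers had a median of 4.53 in P and 3.95 in T at 72 HAI, against 11.6 in P and 11.7 in T in dry seeds, whereas the 7 markers of greening seedlings had medians of 11.0 in P and 10.9 in T at 72 HAI, against 3.14 in P and 3.96 in T in dry seeds.

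The median occupancy of the members was -0.43 in dry seeds and -0.61, -0.70, -0.75 and -0.79 at 6, 26, 48 and 72 HAI. These medians equal P values at 74.2, 65.4, 61.6, 59.5 and 57.7% of T. Over all 5577 rows the median occupancy lay between 0.10 and 0.19 at the 5 time points. The depth of the depletion varied widely among members. In dry seeds 11 members were below -1, and 36, 36, 37 and 57 members were below -1 at 6, 26, 48 and 72 HAI. Over all 5577 rows 16, 137, 111, 95 and 139 (0.287, 2.46, 1.99, 1.7 and 2.49%) were below -1 at these times, so that most of the strongly depleted rows after imbibition were not members, being higher at another time. Dry seeds held the highest occupancy of 73 members (48.7%, against 30.1% of all rows), and 72 HAI held the lowest occupancy of 68 members (45.3%, against 19.9% of all rows). The choice by the maximum bounds each member at its highest time point and leaves the other times free, so these shares are descriptions of the selected rows.

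**Figure D1:**
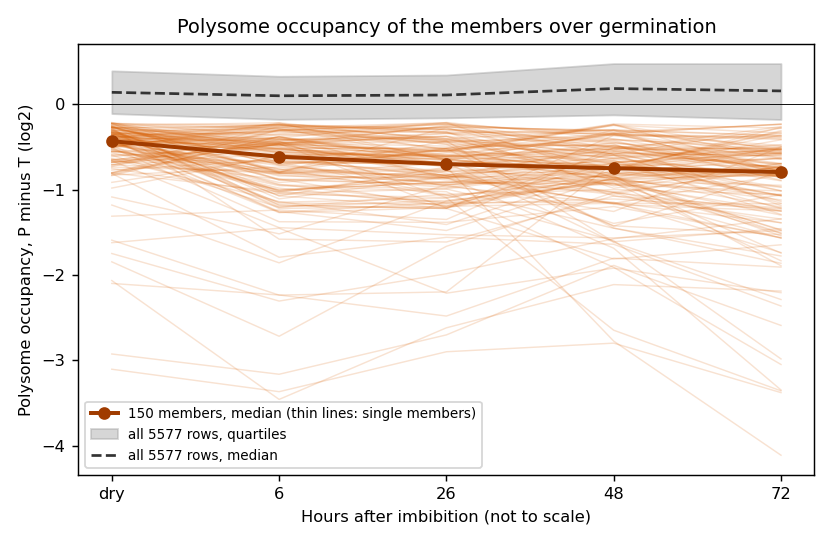
Polysome occupancy (P minus T, log2) of each of the 150 members (thin lines) and their median (thick line with points) at the 5 time points, with the median (dashed) and quartiles (grey) of all 5577 rows. The median of the members runs through -0.43, -0.61, -0.70, -0.75 and -0.79 along the time course, while the median of all rows stays between 0.10 and 0.19.

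Single arrays were compared as well, as a description. All 3 P arrays lay below all 3 T arrays for 111 members in dry seeds, where the share over all rows was 12.7%. At 6, 26, 48 and 72 HAI this held for 132, 131, 129 and 136 members, with 19.5, 17.4, 14 and 15.8% of all rows. In 77 members it held at all 5 time points, as in 86 (1.54%) of all rows, and in 5 members at only 2. Since these differences chose the members, nothing was read from the counts.

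The limit of the choice is not a natural break. Just inside it, the maximum occupancies of the last 5 members were -0.22 for AT1G17490, -0.21 for AT3G07910, -0.21 for AT3G26580, -0.21 for CBR and -0.21 for AT1G30200. Just outside it were AT2G07811, AT2G07774, AT5G20790, SIP1A and AT3G27770, at -0.21 each. Only 7 members had a maximum below -1 and 33 a maximum below -0.5, and 501 rows (8.98%) were below 0 at every time point.

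When the rule was applied to the arrays of 2 replicate numbers and the occupancy of the chosen rows was read in the arrays of the third, the median stayed negative at every time point. Over the 15 combinations of replicate number and time point it ranged between -0.94 and -0.39, and between 84.7 and 99.3% of the chosen rows were below 0, against 27.8 to 43.9% of all rows. Below 0 at all 5 time points in the arrays left out were 111, 119 and 118 of 150 rows. The share of all rows that met this joint condition is not given here, so nothing was read from these counts.

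A part of the members are not annotated as mRNAs. By the RefSeq annotation of the TAIR10.1 assembly, 21 of the 150 (14%) belonged to gene classes other than protein coding, against 82 of the 5549 rows with an entry (1.48%). They were 5 tRNAs, 5 small nucleolar RNAs, 4 transcribed pseudogenes, 4 RNAs of the class ncRNA, 2 small nuclear RNAs and 1 long non-coding RNA. These are the classes of the annotated genes. Whether the signal came from the mature RNA, a precursor or an overlapping transcript was not tested, nor was the recovery of short RNAs. Both small nuclear RNAs that passed the level requirement were members, and so were 5 of 10 small nucleolar RNAs, 5 of 9 tRNAs, 4 of 15 ncRNAs and 1 of 19 long non-coding RNAs. Of the first 10 members in the order of maximum occupancy, 6 were not protein coding. One further member, AT7SL-1, is named as a 7SL RNA gene by RefSeq although its class is given as protein coding. By these annotations the name mRNAs with low polysome occupancy fits only the other members, and the set is best read as transcripts.

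The lowest member was AT1G15405, an ncRNA with a gene span of 292 bp and no symbol. In dry seeds its P arrays read 8.33, 8.83 and 8.29 and its T arrays 11.56, 11.65 and 11.56. At 6 HAI they read 7.74, 8.07 and 8.18 in P and 11.37, 11.18 and 11.54 in T. At 26 HAI they read 7.71, 7.86 and 8.59 in P and 10.85, 10.90 and 11.11 in T. The fractions were thus more than 2 log2 units apart in every array so far. At 48 HAI the values were 7.39, 7.72 and 8.19 in P and 10.38, 10.57 and 10.74 in T. At 72 HAI they were 7.31, 7.07 and 8.08 in P and 10.91, 10.82 and 10.86 in T. Its occupancy was -3.10, -3.37, -2.90, -2.80 and -3.38 along the time course, which puts P at 9.62 to 14.4% of T.

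U1.5 is a small nuclear RNA of the U1 type, a class that takes part in splicing as a component of the spliceosome. In dry seeds its P arrays read 8.23, 9.21 and 8.44 and its T arrays 10.70, 10.74 and 10.64. At 6 HAI they read 6.89, 6.58 and 7.18 in P and 10.05, 10.55 and 10.42 in T. At 26 HAI they read 5.76, 6.68 and 7.17 in P and 9.07, 8.98 and 9.41 in T. Both fractions became lower over these times, P by more than T at 6 HAI. At 48 HAI the arrays read 5.49, 5.98 and 6.67 in P and 8.12, 7.89 and 8.46 in T, and at 72 HAI 6.07, 7.67 and 6.62 in P and 8.88, 9.24 and 8.80 in T. The P and T values did not overlap at any time, and the occupancy was -2.06 in dry seeds, -3.46 at 6 HAI and -2.19 at 72 HAI. U12, which belongs to the minor spliceosome, was less depleted and moved more, with -1.59, -2.23, -2.20, -0.69 and -1.07 along the time course.

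AT7SL-1, the RNA scaffold of the signal recognition particle that brings ribosomes making secreted proteins to the endoplasmic reticulum, had P values of 8.99, 9.42 and 9.14 and T values of 11.05, 11.11 and 10.94 in dry seeds. At 6 HAI it read 7.95, 8.20 and 8.49 in P and 10.74, 11.00 and 11.07 in T. Its occupancy was then -2.72, its lowest. At 26 HAI it read 9.45, 9.96 and 10.26 in P and 11.59, 11.40 and 11.67 in T. At 48 HAI it read 9.32, 9.95 and 9.82 in P and 10.57, 10.77 and 10.85 in T, and at 72 HAI 9.29, 9.18 and 9.62 in P and 10.51, 10.53 and 10.79 in T. No P array reached the lowest T array of its time point, and the occupancy of -1.03 at 48 HAI was its highest. Since 7SL RNAs are encoded by a small family, signal from near-identical copies cannot be told apart on this row.

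SNOR30, a small nucleolar RNA of the type that guides the modification of ribosomal RNA, had occupancies of -1.75, -2.30, -1.98, -1.57 and -1.34. Its P arrays at 72 HAI read 7.64, 7.08 and 7.58 and its T arrays 8.24, 8.46 and 9.63, the third T array standing over 1 unit above the others. The small nucleolar RNA AT3G47348 had -2.36 at 72 HAI and -0.81 in dry seeds, AT3G58196 had -1.48 at 72 HAI and -0.66 in dry seeds, AT3G50825 had -0.34 at 72 HAI and -1.31 in dry seeds, and AT2G05765 had -0.64 at 72 HAI and -0.33 in dry seeds. In AT3G47348 the third T array at 72 HAI was again the highest, with 8.26, 7.82 and 9.17 in T and 6.00, 6.16 and 6.00 in P. Part of its value of -2.36 thus rests on that array. Of these 5 small nucleolar RNAs, SNOR30 and AT3G50825 were thus less depleted at 72 HAI than in dry seeds and the others more. The long non-coding RNA AT4G38932 lay between -2.21 and -1.45.

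Among the first 12 members, several overlap other genes by their coordinates. The strand was not used, so whether their signal is shared was not settled. AT1G15405 overlaps the long non-coding RNA gene AT1G05163. AT3G41761, an ncRNA, and AT3G41762, which is filed as protein coding, overlap each other, and a ribosomal RNA gene lies within 3 genes of AT3G41761. Their occupancies ran together, at -1.83 and -1.89 at 72 HAI and at -1.18 and -1.08 in dry seeds. AT1G68945 overlaps a small nucleolar RNA gene and had an occupancy between -2.48 and -1.80. AT2G31141, between -3.16 and -1.89, overlaps the protein-coding genes AT2G31140 and AT2G31150. AT1G68220, a protein-coding gene for which no overlap is listed, had -0.75 in dry seeds, -1.05, -1.09 and -0.81 at 6, 26 and 48 HAI and -0.74 at 72 HAI. Over all members an overlap with another annotated gene was as common as elsewhere, at 37.3% of the members and 35.4% of all rows.

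**Figure D2:**
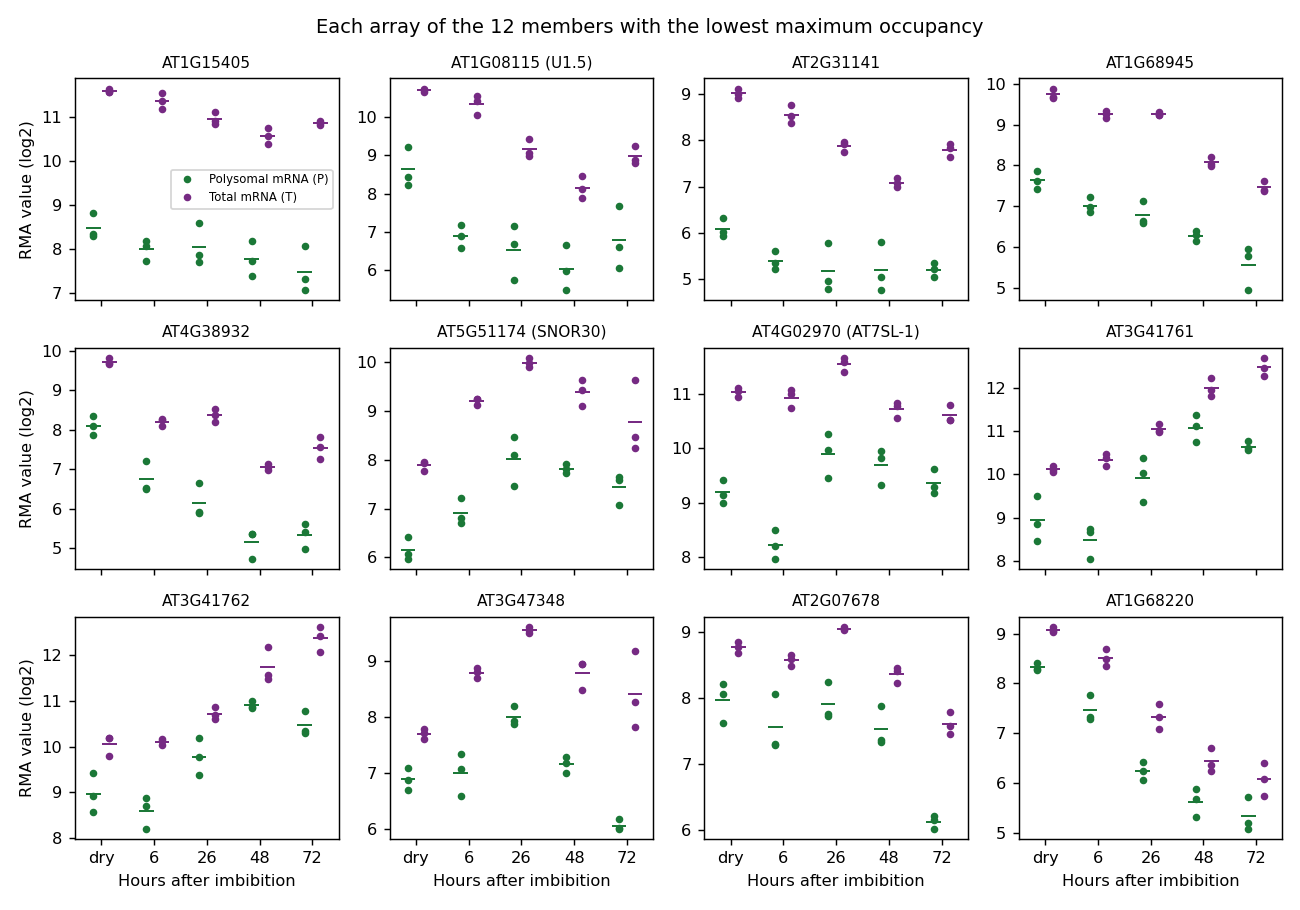
RMA values (log2) of the 12 members with the lowest maximum occupancy, with 1 panel per member, the 3 polysomal arrays (P, green) left of the 3 total arrays (T, purple) at each time point and short lines at the means. In AT1G15405, U1.5 and AT7SL-1 no P array reaches a T array at any time point, and AT1G68220 has the highest maximum occupancy of the 12, at -0.74.

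Of the members 13 carried AT2G07 locus tags, a range that includes a large insertion of mitochondrial DNA in chromosome 2. The sequences of the insertion are nearly identical to the mitochondrial genome. A probe set there cannot tell the nuclear copy from the organellar RNA, so these rows are uncertain. Rows were taken by locus tag alone, and the range may also hold genes outside the insertion. Which rows lie within it was not checked. Of the 71 AT2G07 rows that passed the level requirement 13 (18.3%) were members, and all 5 member tRNAs were among them. Their median occupancy was -0.40 in dry seeds and -0.76, -0.95, -1.42 and -1.74 at 6, 26, 48 and 72 HAI. In 11 of the 13 the highest occupancy was in dry seeds (30.1% of all rows). In 11 the lowest was at 72 HAI (19.9% of all rows). The drop after dry seeds was not particular to the members. Over all 71 AT2G07 rows the medians were -0.06, -0.62, -0.67, -0.51 and -0.87 along the time course. The span of the 13 members was short, with a median of 337 bp.

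The tRNA row AT2G07746 had the widest range of all members. In dry seeds its P arrays read 6.38, 6.94 and 7.01 and its T arrays 6.91, 7.34 and 6.97, so the groups overlapped. At 6 HAI they read 6.72, 6.58 and 7.06 in P and 7.96, 7.95 and 7.68 in T, and at 26 HAI 7.26, 7.40 and 8.01 in P and 8.34, 8.10 and 8.43 in T. At 48 HAI they read 8.20, 7.78 and 8.06 in P and 10.75, 10.86 and 10.75 in T. At 72 HAI P had 6.46, 6.64 and 6.55 and T had 10.67, 10.81 and 10.51. T was higher at 48 than at 26 HAI by more than P was, and the occupancy reached -2.77 at 48 HAI and -4.11 at 72 HAI. The next widest ranges were those of AT2G07813, AT2G07722 and AT2G07775, which had -3.36, -3.35 and -2.98 at 72 HAI and -0.39, -0.43 and -0.27 in dry seeds. Of the rows from the mitochondrial genome itself, which the rule did not admit, 64 of 92 passed the level requirement, and 17 of them had a maximum occupancy at or below that of the last member.

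**Figure D3:**
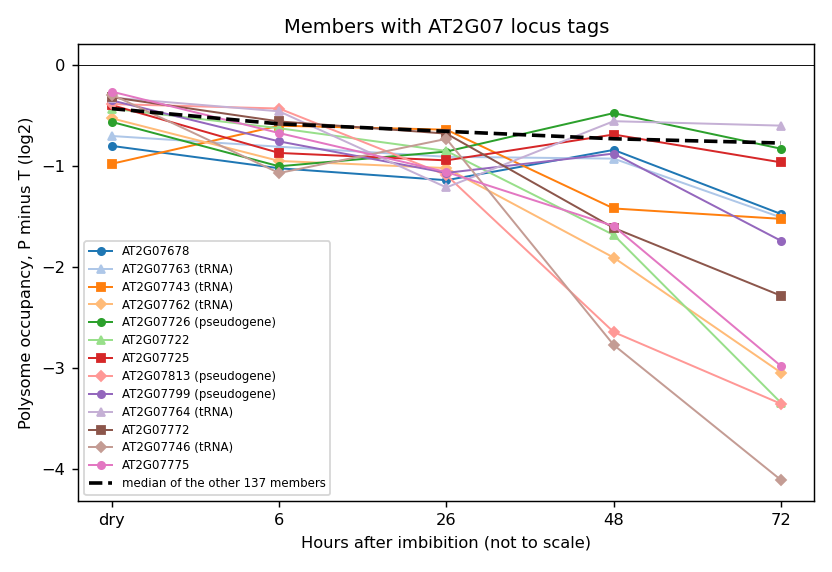
Polysome occupancy (P minus T, log2) of the 13 members with AT2G07 locus tags at the 5 time points, with the median of the other 137 members (dashed). At 72 HAI the 13 spread between -4.11 and -0.60, against -0.98 to -0.27 in dry seeds.

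At the other end, the occupancy of 4 members hardly moved. HBP1, a haem-binding protein, had -0.64, -0.67, -0.71, -0.60 and -0.70 along the time course, EMB3114 between -0.86 and -0.73, AT5G55610 between -0.40 and -0.25 and AT4G33480 between -0.37 and -0.22. The fitted standard error of 1 occupancy value was 0.15 for HBP1 and 0.18 as the median of the members, so the spread of these 4 members over time was of the size of the error of single values. Between 6 HAI and dry seeds the occupancy of U1.5 and AT2G05920 was lower by more than 1 (-1.39 and -1.30), as in 6.1% of all 5577 rows. Between 26 and 6 HAI that of AT7SL-1 was higher by 1.05, a size reached upwards by 0.0359% of all rows. Between 48 and 26 HAI that of U12 was higher by 1.51, and those of AT2G07746, AT2G07813 and AT2G27390 were lower by more than 1, beside 0.412% of all rows upwards and 0.735% downwards. Between 72 and 48 HAI AT2G07722, AT2G07775, AT2G07746, AT2G07762 and AT3G41762 were lower by more than 1, beside 0.341% of all rows. These changes are made of the same differences as the choice and were not tested.

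Members came from short genes. The annotated gene span, introns included, had a median of 1493 bp among members, 2489 bp among all rows that passed the level requirement and 3163 bp among the 150 rows with the highest minimum occupancy. The share of rows that were members was 39.3% of the 61 rows under 500 bp, 8.53% of 211 rows from 500 to under 1000 bp, 6.06% of 545 rows from 1000 to under 1500 bp and 3.62% of 995 rows from 1500 to under 2000 bp. It was 1.70% of 1769 rows from 2000 to under 3000 bp and 0.919% of 979 rows from 3000 to under 4000 bp. None of the 989 rows of 4000 bp and over was a member, and the longest member spanned 3806 bp. The order was the same for protein-coding rows outside AT2G07, where 35% of the 20 rows under 500 bp and 0 of 983 rows of 4000 bp and over were members. The median occupancy of rows under 500 bp was -0.33, -0.57, -0.73, -0.51 and -0.79 along the time course, and that of rows of 4000 bp and over 0.52, 0.06, 0.16, 0.24 and 0.33. Across the 5425 protein-coding rows outside AT2G07, which are not independent replicates, Spearman's rho of span and occupancy was 0.57 in dry seeds and -0.05, 0.12, 0.11 and 0.26 at 6, 26, 48 and 72 HAI, largest in dry seeds and near 0 at 6 HAI. A single RefSeq transcript was listed for 70.0% of the members and for 52.9% of all rows. These are descriptions of the annotation, and coding and leader lengths were not used here.

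**Figure D4:**
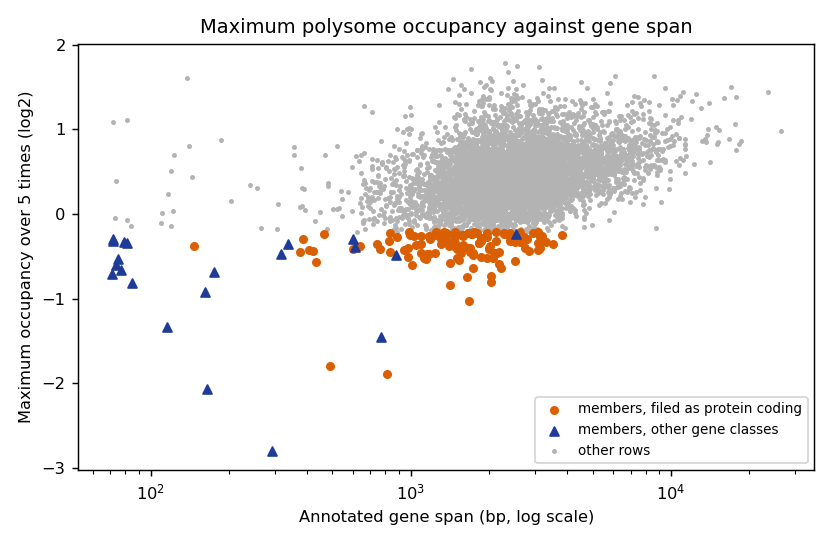
Maximum polysome occupancy over the 5 time points (P minus T, log2) against the annotated gene span (bp, log scale) for the rows that passed the level requirement, with members filed as protein coding (orange circles), members of other gene classes (blue triangles) and the other rows (grey). No member spans 4000 bp or more, and the triangles lie mostly at the short end.

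Members made up 2.69% of all rows that passed the level requirement. None of the 7 rows on a list of 25 mRNAs with known regulatory upstream open reading frames that passed the level requirement was a member, and none of 20 such rows on a list of 25 SR splicing factors and RNA-binding proteins with unproductive splice forms. For lists of this length a count of 0 is near that background share. The median of the maximum occupancy was 0.57 on the first list and 0.54 on the second, against 0.46 over all rows.

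RefSeq gave a symbol to 44 members, and the groups below were put together from these names after their values had been seen. They do not take in all 44. The first group is made of 15 genes whose products enter the endomembrane system, the plasma membrane or the cell wall. Their median occupancy was -0.41 in dry seeds and -0.83, -0.84, -0.75 and -0.77 at 6, 26, 48 and 72 HAI. In 11 of the 15 the highest value was in dry seeds, beside 48.7% of all members and 30.1% of all rows. Whether other genes of this kind behave alike was not tested. UNE5, a protein disulphide isomerase, had -0.31 in dry seeds and -1.07 to -1.21 at 6 and 26 HAI. HMG1, the 3-hydroxy-3-methylglutaryl CoA reductase of sterol synthesis, had -0.43 and -1.15 to -1.10 at the same times, and PS1, a presenilin, -0.30 and -1.02 to -0.84. TOM2A, a membrane protein that tobamoviruses need to multiply, had -1.22 at 6 HAI and -0.30 in dry seeds. The cytochrome P450 CYP81K1 reached -1.78 at 72 HAI, against -0.44 in dry seeds.

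The second group holds 9 genes of plastid and mitochondrial proteins. Their median occupancy was -0.42, -0.49, -0.69, -0.55 and -0.63 along the time course. HCF106, a component of the thylakoid Tat translocase, lay between -0.69 and -0.45, and HDR, the last enzyme of the plastid isoprenoid pathway, between -1.05 and -0.41. TOM5 and TOM6, small subunits of the mitochondrial outer membrane translocase, had -0.52 and -1.14 at 72 HAI and -0.42 and -0.48 in dry seeds. PRORP1, the protein-only RNase P of the organelles, had -0.29 in dry seeds, -1.11 at 6 HAI and -0.31 at 72 HAI.

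The third group consists of 5 small conserved proteins, with medians of -0.38, -0.53, -0.60, -0.50 and -0.58 along the time course. They were SNRNP-G, a core protein of the spliceosomal particles (between -0.83 and -0.51), NRPB12, a small RNA polymerase subunit (between -0.76 and -0.38), the protein modifier SUMO2 (between -1.07 and -0.29), the copper chaperone ATX1 (between -0.40 and -0.24) and BNS, a subunit of the anaphase-promoting complex (between -0.60 and -0.35).

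The amount of the members was followed with the mean of the P and T levels, which the choice by differences did not use. It is made of the same P and T arrays, however, and the level requirement used the same group means, so values for each fraction alone are given beside it. The median SD of the members among replicates was 0.17 to 0.24 in P and 0.12 to 0.17 in T over the time points. A level was called changed where limma gave an adjusted p below 0.05 over the 17061 rows tested and a log2 change above 1. In a bulk sample, fewer cells of a type and less RNA per cell cannot be told apart, and the seed and greening markers above moved over the same times, whose part in these changes was not tested. Between 72 HAI and dry seeds 34 members (22.7%) rose and 45 (30%) fell. Of all rows tested, 31.6% rose and 28.6% fell, and of the 5577 rows under the same level requirement 18.2% rose and 26.6% fell. In polysomal mRNA alone 29 members (19.3%) rose and 55 (36.7%) fell, beside 18.5 and 27.6% of rows under the level requirement. In total mRNA alone 42 (28%) rose and 41 (27.3%) fell, beside 18.4 and 26.6%. The difference between the P and T counts is made of the differences that chose the members, so nothing was read from it. In all, 104 of the 150 (69.3%) were called in at least 1 of the 5 comparisons of the mean level, as were 62% of the rows under the level requirement.

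Between 6 HAI and dry seeds 19 members (12.7%) rose and 19 (12.7%) fell, beside 15.9 and 11.2% of all rows tested and 20 and 7.73% of rows under the level requirement. Between 26 and 6 HAI 17 (11.3%) rose and 22 (14.7%) fell, beside 14.7 and 9.84% of all rows and 8.12 and 7.69% under the requirement. The interval from 26 to 48 HAI had 9 rises (6%) and 15 falls (10%), beside 14.3 and 13.8% of all rows and 2.85 and 9.14%. From 48 to 72 HAI there were 5 rises (3.33%) and 15 falls (10%), beside 6.17 and 5.72% of all rows and 1.69 and 5.54%. In this last interval 6 rose and 25 fell in polysomal mRNA alone, beside 1.7 and 7.12% of rows under the requirement. In total mRNA alone 4 rose and 8 fell, beside 1.81 and 5.13%. Nothing was read from this difference between the fractions either. With array medians set equal, which moved the median change of all rows tested by -0.29 between 26 and 6 HAI, by -0.13 between 48 and 26 HAI and by -0.48 between 72 HAI and dry seeds, 10 members rose and 39 fell, 6 rose and 20 fell, and 22 rose and 67 fell in these 3 comparisons. Under the same scaling 4.39% of the rows under the level requirement rose and 15.7% fell in the first comparison, 2.04 and 13.7% in the second and 10.6 and 41.4% in the third. Whether these shares differ from the background was not tested. The median change between 72 HAI and dry seeds was -0.20 for the members and -0.25 for the rows under the level requirement.

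**Figure D5:**
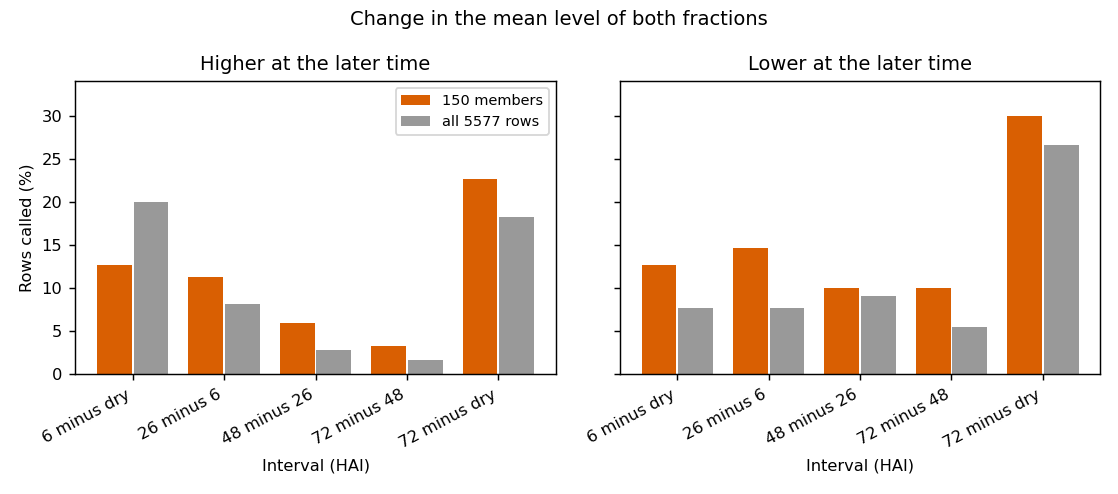
Percent of the 150 members (orange) and of the 5577 rows under the same level requirement (grey) called higher (left) or lower (right) in the mean of P and T levels at the later time of each interval. Between 72 HAI and dry seeds 22.7% of the members rose and 30% fell, beside 18.2 and 26.6% of all these rows.

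The largest rise between 72 HAI and dry seeds was that of AT3G20362. At 72 HAI it read 10.24, 10.12 and 10.50 in P and 10.94, 10.94 and 10.68 in T, against 4.91, 5.14 and 4.95 in P and 5.76, 5.89 and 5.32 in T in dry seeds. The log2 change of the mean level was 5.24 ± 0.17 (SE, limma adjusted p = 4.34e-20), of which 2.79 came in the interval from 26 to 48 HAI. Both fractions were higher, and the occupancy stayed between -1.20 and -0.57. The SEs and p-values given here treat the P and T arrays of a time point as independent, although the study describes 3 biological replicates. They may therefore be too small. AT2G41650 rose by 2.56 ± 0.15 (SE), AT2G07743 (a tRNA row) by 2.50 ± 0.14, AT2G07764 (a tRNA row) by 2.43 ± 0.12, CBR by 2.41 ± 0.14 and AT3G04550 by 2.40 ± 0.12, each with no overlap between the 6 arrays of 72 HAI and the 6 of dry seeds. CBR, the NADH:cytochrome b5 reductase, read 8.41, 8.36 and 8.24 in P and 8.71, 8.55 and 8.44 in T at 72 HAI, against 5.94, 6.06 and 5.81 in P and 5.68, 6.60 and 6.16 in T in dry seeds.

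The largest fall was that of AT5G35660. At 72 HAI it read 4.42, 4.76 and 7.77 in P and 6.26, 6.27 and 6.51 in T, against 11.66, 11.55 and 11.58 in P and 11.87, 11.85 and 11.90 in T in dry seeds. The change was -5.74 ± 0.33 (SE, limma adjusted p = 4.94e-15), and the third P array at 72 HAI stood 3 units above the other two. Without it the change was -6.27. Next came AT5G54300 (-3.96 ± 0.13), AT1G15840 (-3.29 ± 0.12), AT1G68220 (-2.99 ± 0.14), NRT2.7 (-2.73 ± 0.14) and AT1G12064 (-2.70 ± 0.13). NRT2.7, the nitrate transporter of the seed vacuole, read 5.30, 5.93 and 5.75 in P and 6.57, 6.19 and 6.53 in T at 72 HAI, against 8.54, 8.37 and 8.79 in P and 8.95, 8.89 and 9.11 in T in dry seeds. Its occupancy was -0.77 at 72 HAI and -0.41 in dry seeds.

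Single intervals brought out other members, named here only where the 6 arrays of the later time did not overlap those of the earlier time. Between 6 HAI and dry seeds AT2G41650 (2.25), AT5G14450 (2.07) and the small nucleolar RNA AT3G58196 (2.0) rose the most, and AT3G26580 (-1.98), UAH (-1.96) and NHL3 (-1.85) fell the most. UAH is the ureidoglycolate amidohydrolase of purine breakdown. Between 26 and 6 HAI AT3G11120 (2.29), AT2G41650 (1.93) and AT5G08690 (1.83) rose, while AT5G15780 (-2.02), AT5G65660 (-1.80) and HBP1 (-1.75) fell. Between 48 and 26 HAI AT3G20362 (2.79), AT2G27390 (2.29) and AT2G07743 (1.92) rose, and AT5G35660 (-3.02), AT5G65660 (-2.11) and the arabinogalactan protein AGP10 (-1.35) fell. Between 72 and 48 HAI AT5G15780 (2.25), NHL3 (1.51) and OEP6 (1.30), a protein of the plastid outer envelope, rose, and AT5G14450 (-1.76), TOM6 (-1.37) and AGP10 (-1.15) fell. NHL3 and AT5G15780 are thus members whose level moved down and later up again, and AT5G14450 went the other way. All these changes are log2 differences of the mean of P and T, with limma adjusted p-values of 1.31e-08 (AGP10, 72 against 48 HAI) or smaller. Some falls beyond that of AGP10 were left out because arrays overlapped. Examples are AT2G14878 between 48 and 26 HAI (-1.48) and AT1G15840 between 72 and 48 HAI (-1.45).

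The calls between 72 HAI and dry seeds are given next by named group, beside 18.2% rises and 26.6% falls among rows under the level requirement. The groups were put together after their values had been seen and were not tested. They leave out some members with a symbol, so the counts depend on how the groups were drawn. Of all 44 members with a symbol 12 rose and 13 fell. Among those in no group, EMB3114 (1.86) and PLAT1 (1.57) rose, and SOUL-1 (-2.47) and UAH (-2.13) fell, for example. Of the 9 genes of organelle proteins 4 rose, with HCF106 at 2.34, OEP6 at 2.15, PRORP1 at 1.78 and HDR at 1.0, just past the limit, and 0 fell by the limma call. At an unadjusted limma p below 0.05, with no limit on size, 6 were higher and 1 was lower. The share of all rows at that looser limit is not given here. The call of HDR was lost when any 1 of 6 arrays was left out, with changes down to 0.96. HCF106 read 7.51, 7.81 and 7.34 in P and 8.20, 8.20 and 8.34 in T at 72 HAI, against 5.36, 5.32 and 5.31 in P and 5.72, 6.05 and 5.61 in T in dry seeds, with no overlap. Of the 15 genes of endomembrane, plasma membrane and wall proteins 3 rose (CBR, MVP1 at 1.17 and UNE5 at 1.06) and 6 fell. Those that fell were NRT2.7, TOM2A (-2.65), AGP10 (-2.63), the expansin EXPA13 (-1.64), the subtilisin-like protease ARA12 (-1.23) and CYP81K1 (-1.14). AGP10 read 7.41, 6.58 and 6.93 in P and 7.90, 7.48 and 7.64 in T at 72 HAI, against 9.66, 9.52 and 9.66 in P and 10.27, 10.34 and 10.28 in T in dry seeds. Of the small conserved proteins SNRNP-G (1.20) and ATX1 (1.04) rose and NRPB12 (-1.07) fell. The calls of ATX1 and NRPB12 each rested on 1 array, with changes of 0.97 without the third P array at 72 HAI and of -0.97 without the second.

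Of the 21 members that are not protein coding 7 rose and 4 fell between 72 HAI and dry seeds, beside the 18.2 and 26.6% of rows under the level requirement. The long non-coding RNA AT4G38932 fell by 2.47, U1.5 by 1.78, and SNOR30 rose by 1.09, whereas AT7SL-1, which RefSeq files as protein coding, had a change of -0.12 and was not called. Without the third T array at 72 HAI, the high one, the change of SNOR30 was 0.88 and its call was lost. AT3G41761 rose by 2.03 and its overlapping neighbour AT3G41762 by 1.91. Of the 13 AT2G07 rows 5 rose and 1 fell in the mean of both fractions. In AT2G07746, total mRNA alone was higher by 3.59 at 72 HAI than in dry seeds, and in AT2G07775 by 1.67.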

How the data were processed

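Polysomal and total mRNA were hybridized to 30 Gene 1.1 ST arrays, 3 for each of 10 groups, and groups were taken from the sample titles. The values deposited by the authors are on the log2 scale and were computed by RMA with Brainarray probe sets. The methods name a 3′ IVT kit and the labels whole-transcript kits, and the genome build behind the probe sets is not given in the sources used here, while the methods name TAIR10 for sequence analyses. The table holds 27827 rows, of which 27241 matched RefSeq locus tags (TAIR10.1), used only for names, gene classes and spans.

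A linear model with 1 mean per group was fitted with limma 3.58.1 (R 4.3.3) to rows above 4 in all 3 replicates of at least 1 group (17061 rows, all 150 members among them). Contrasts of the mean of P and T between time points were called at a Benjamini-Hochberg adjusted p below 0.05 and a log2 change above 1. The replicates are described as biological, but the labels do not tie array numbers to plant bulks across groups. Arrays have no sequencing depth, and their number limits the precision.

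The members and the gene lists were chosen with earlier results of these data known. Named genes were the 12 lowest members, those beside the limit, the largest changes of level in each direction and interval without overlap of arrays, the 4 widest and narrowest occupancy ranges, and members that are not protein coding. Alternatives covered filters, scaling, single fractions, moderation and single arrays left out.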

Additional observations from a re-analysis of the deposited data

How the results depend on the processing

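Of the 150 members, 99 were also chosen at a level above 4, 81 above 6 and 76 by the lowest mean occupancy. Leaving out 1 replicate number left 110 to 118. The median occupancy of the members in dry seeds was -0.40 with array medians set equal, -0.56 after further quantile normalization and -0.57 relative to all rows. At 6 HAI it was -0.68 after quantile normalization, -0.71 relative to all rows and -0.53 for protein-coding members outside AT2G07. At 48 HAI it was -0.93 relative to all rows, and at 72 HAI -0.67 with equal medians, -0.86 after quantile normalization and -0.95 relative to all rows. For rows chosen from 2 replicate numbers and read in the arrays of the one left out, it ranged from -0.45 to -0.39 in dry seeds, -0.75 to -0.58 at 6 HAI, -0.85 to -0.60 at 26 HAI, -0.94 to -0.58 at 48 HAI and -0.93 to -0.83 at 72 HAI. The median span of rows under the level requirement was 2452 bp within the level range of the members. With array medians set equal, which moved the median change of all rows by -0.29 between 26 and 6 HAI and by -0.48 between 72 HAI and dry seeds, 10 members rose and 39 fell in the first of these comparisons and 22 rose in the second, beside 17, 22 and 34. In total mRNA alone 12 members fell between 6 HAI and dry seeds and 8 between 72 and 48 HAI, beside 19 and 15. For P arrays alone the falls from 48 to 72 HAI numbered 25. Of the rows under the level requirement, 5.13% fell in T alone and 7.12% in P alone from 48 to 72 HAI. No such share is given here for T between 6 HAI and dry seeds, so nothing was read from the 12 falls. With single arrays left out, the rises numbered 18 to 21, 16 to 19, 8 to 11 and 4 to 7 and the falls 17 to 19, 20 to 23, 12 to 15 and 12 to 18 over the 4 consecutive intervals, and 33 to 35 rose and 44 to 48 fell between 72 HAI and dry seeds. The deviations of same-numbered samples correlated above 0.1 for all 3 numbers in 1 of 13 comparisons of groups (P at 26 and 6 HAI) and not in the other 12, with values from -0.07 to 0.27, and the labels do not tie the numbers, so they were not taken as pairs. With the replicate block 34 members rose and 45 fell between 72 HAI and dry seeds, and no count of calls changed in any interval. The same counts came from an added fit, chosen after seeing the data, on the mean of P and T per replicate number. The 12 members named for their change between 72 HAI and dry seeds kept their direction and call under every setting. Protein and leader features and their alternatives were not run, as no sequences were used. The third P array at 72 HAI decided part of the size for AT5G35660.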
